A study of Mus musculus with 3 samples.

Results

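Arteriole endothelial cells were identified among sorted mouse muscle endothelium as cell barcodes that met a rule on 15 genes. The rule was met by 301 of 11554 kept barcodes: 172 untreated, 69 sedentary and 60 running barcodes. Members were selected on their own counts of unique molecular identifiers (UMIs, the molecules counted per gene). Barcodes were kept from 300 detected genes upward, provided that mitochondrial genes gave no more than 10% of their UMIs. A member had at least 3 UMIs summed over the 7 arterial genes Sema3g, Gja5, Gja4, Bmx, Hey1, Stmn2 and Fbln5. It had at most 1 UMI over Fbln5, Stmn2, Gkn3 and Eln, which the rule takes as genes of larger arteries and elastic tissue. It also had at most 1 over the 6 vein genes Nr2f2, Vwf, Vcam1, Ackr1, Selp and Lrg1. Levels of these 15 genes in the members, and any contrast of members with other barcodes, are therefore descriptions.

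The libraries allow muscle endothelium of running mice to be set beside that of mice without a wheel. All 3 libraries came from gastrocnemius muscle of wild-type C57BL/6N mice and held live cells sorted as CD31+ and CD45-. Running mice lived alone with a wheel for 14 days, and sedentary mice lived alone in cages of the same size that had no wheel. The untreated library is labelled only as muscle cells given no treatment, and its housing, the ages of the mice and the number of mice per library were not stated in the sources used. With 1 library for each group, no test between groups was possible and no difference has a replicate check. For the untreated library, any batch and the group cannot be told apart. Intervals below are 95% intervals that cover counting error only; 1 barcode often gave several UMIs of a gene, so they are too narrow even for that.

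The libraries held 5625068 to 8002866 UMIs, and arteriole barcodes gave 320665 untreated, 112200 sedentary and 140329 running UMIs. Their median depth was 1690, 1557 and 2069 UMIs per barcode, against 1582, 1129 and 1518.5 in the other kept barcodes. Pairs of libraries shared 20 to 32 barcode sequences, none of them between arteriole barcodes and none with identical counts.

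Arterioles are the small resistance vessels that set blood flow into the capillaries of working muscle. Their endothelium is specified through VEGF and Notch signalling, with SOXF factors and HEY repressors downstream, and it passes vasodilator signals along the vessel through gap junctions made of connexins. Connexin 40 (Gja5) and connexin 37 (Gja4) are the connexins typical of arterial endothelium, whereas connexin 43 (Gja1) is more widely expressed.

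The promoters of the arterial connexin genes, whose levels are described below, are shown so that both can be read beside their levels. The sequences are the 250 bases before the RefSeq start of each gene (GRCm38.p6), written 5′ to 3′ on the gene's strand. Capitals mark matches on either strand to CCACCC, the core of the sites of Krüppel-like factors, which are flow-responsive in endothelium. Gja5 lies at chr3:97032152-97032401 on the plus strand and Gja4 at chr4:127314040-127314289 on the minus strand.
Gja5: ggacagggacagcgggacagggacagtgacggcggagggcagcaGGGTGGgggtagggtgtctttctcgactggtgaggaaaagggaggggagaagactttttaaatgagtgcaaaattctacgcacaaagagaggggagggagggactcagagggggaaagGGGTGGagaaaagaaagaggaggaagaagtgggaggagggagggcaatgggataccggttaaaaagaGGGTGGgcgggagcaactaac
Gja4: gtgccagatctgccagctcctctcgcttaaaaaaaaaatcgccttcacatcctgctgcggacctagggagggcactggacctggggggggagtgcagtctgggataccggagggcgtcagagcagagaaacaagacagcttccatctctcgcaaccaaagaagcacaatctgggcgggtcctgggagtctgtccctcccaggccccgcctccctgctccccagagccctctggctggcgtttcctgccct
The Gja5 window held 3 matches to CCACCC, starting 206, 88 and 21 bases before the start, and the Gja4 window held 0. Of 32851 promoter windows of this length in the RefSeq table, 28.1% held at least 1 match. The RBPJ core TGGGAA was found in neither window, and 21.6% of all windows held it. The SOX core ACAATG, held by 10.7% of windows, was also in neither. Neither window held the AP-1 motif TGANTCA (6.75% of all windows) or the GATA core AGATAA (9.99%). The RefSeq start of Gja5 lies inside the longer gene model of GENCODE M21 (chr3:96904693-97077416, GRCm38), which begins upstream of it. Promoters were listed for 4 of the 5 marker genes.

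Members made up 3.98% of kept barcodes in the untreated library (95% interval 3.41 to 4.60), 1.72% in the sedentary library (1.34 to 2.17) and 1.87% in the running library (1.43 to 2.40). The untreated share was the highest and did not overlap the others, and the sedentary and running shares overlapped. As running minus sedentary the difference was 0.15 percentage points (-0.480 to 0.801), so a difference of that size was not detectable at this number of cells. Running minus untreated was -2.11 points (-2.87 to -1.34). With every barcode thinned to 1000 UMIs and the rule applied again, the shares were 4.14%, 2.12% and 1.97%, and running minus sedentary changed sign to -0.155 points (-1.02 to 0.700). The distance to the untreated library depended on Gja5: with that gene left out of the arterial sum, running minus untreated was -1.04 points (-1.73 to -0.33). These are shares of sorted cells, which the dissociation and the CD31 gate can set, and not shares of the muscle.

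**Figure D1:**
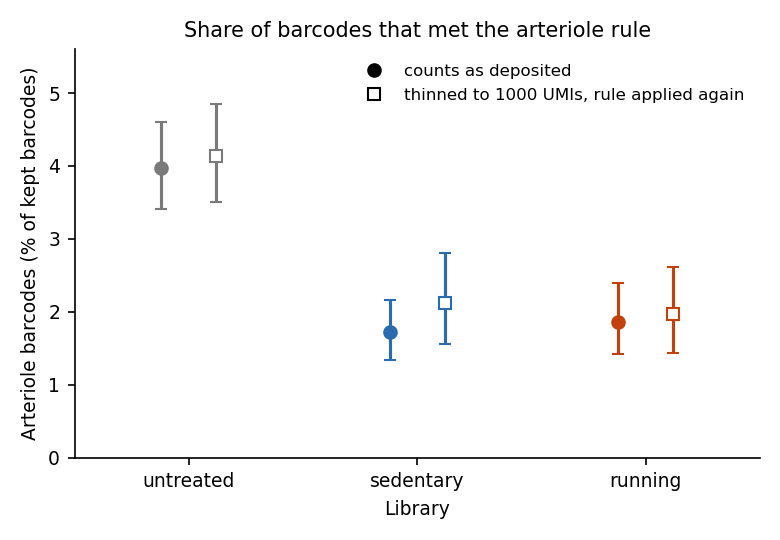
Share of kept barcodes that met the arteriole rule (vertical axis, %) in each library, with exact Clopper-Pearson 95% intervals. Filled circles are deposited counts and open squares are counts thinned to 1000 UMIs per barcode; the untreated library stands at 3.98% and 4.14%, and the other libraries between 1.72% and 2.12%.

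Among the marker genes, Hey1, a Notch-induced transcriptional repressor, was the most frequent and was found in 69.2% of untreated, 72.5% of sedentary and 73.3% of running members. Sema3g, a secreted class 3 semaphorin of arteries, was found in 44.8%, 46.4% and 51.7% of members, and Gja4 in 32.6%, 34.8% and 36.7%. Bmx, a cytoplasmic tyrosine kinase of arterial endothelium, was sparse, with 13, 1 and 6 UMIs in all. In the vein set (at least 3 vein UMIs and at most 1 arterial UMI; median 2641, 2551.5 and 2957 UMIs per barcode), Hey1 was found in 1.78%, 4.67% and 5.88% of barcodes and Sema3g in 0.761%, 1.33% and 1.96%. Both shares are set in part by the limits on arterial UMIs in the members and in the vein set, so they are no test of background. In barcodes that met the rule without the gene in question, Hey1 was found in 43.6%, 20.8% and 30.4%, Sema3g in 29.1%, 17.8% and 34.1%, and Bmx in 2.99%, 0 of 68 and 1.75%. For Bmx the 0 of 68 allows a share of up to 5.28%.

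Many members rested on few molecules. Of 172 untreated members, 81 had exactly 3 arterial UMIs, as did 48 of 69 sedentary and 31 of 60 running members. The marker genes are Sema3g, Gja5, Gja4, Bmx and Hey1, 5 of the 7 arterial genes. Exactly 1 of these markers was found in 23.3% of untreated, 34.8% of sedentary and 38.3% of running members. UMIs of 3 or more markers were found in 38, 9 and 8 members. Stmn2 and Fbln5, which the rule also takes as genes of larger arteries and elastic tissue, count in the arterial sum. A member with 1 marker could therefore also rest on 1 UMI of either. Stmn2 was found in 43 of 172, 24 of 69 and 23 of 60 members. Fbln5 was found in 40, 17 and 12. Hey1 with Sema3g was the most frequent pair in the running library, in 22 of 60 members, and shared the first place in the sedentary one with Hey1 and Gja4, each in 18 of 69. In the untreated library it was Hey1 with Gja5, in 55 of 172.

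Just outside the limit, 185 untreated, 155 sedentary and 102 running barcodes had 2 arterial UMIs. Their summed level of 35 arterial genes outside the rule was 14476, 13366 and 11034 CPM (counts per 1e6, the UMIs of a gene or list scaled to all UMIs of the set). Barcodes at exactly 3 UMIs had 16133, 15204 and 12075 CPM, and those with 4 or more had 15675, 15740 and 12522 CPM. The limit therefore cut through a range of values and not a gap.

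Gja5 was the marker that differed most between libraries. It had 159 UMIs in untreated, 21 in sedentary and 7 in running members (496, 187 and 49.9 CPM) and was found in 87 of 172, 17 of 69 and 6 of 60 of them. Its share of members was thus highest in the untreated and lowest in the running library. Because Gja5 helped to choose the members, the same was read in barcodes chosen without it. Those that met the rule on the other genes numbered 123, 59 and 58, and held 70, 7 and 4 Gja5 UMIs, found in 30.9%, 11.9% and 6.90% of them. The log2 ratio there was -3.15 for running to untreated (-5.23 to -1.89) and -1.16 for running to sedentary (-3.45 to 0.74), so the sedentary and running libraries were not told apart. With counts thinned to 1000 UMIs the same ratios were -1.70 (-3.52 to -0.49) and 1.03 (-1.40 to 4.60), on 5 running and 2 sedentary UMIs. The untreated level was thus the highest under both settings, by a smaller ratio to running when thinned, while the order of the other libraries was not settled.

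Outside the members the pattern for Gja5 was similar against the untreated library but not against the sedentary one. In larger-artery barcodes (the same arterial limit with at least 2 UMIs of the elastic genes; 566, 423 and 337 barcodes) Gja5 was at 480, 113 and 139 CPM. Over all kept barcodes it was at 132, 30.9 and 33.4 CPM, a log2 ratio of -1.97 for running to untreated (-2.20 to -1.76) and 0.11 for running to sedentary (-0.19 to 0.42). The low running value in members rests on 7 UMIs, and the running library was not the lowest once all barcodes were counted.

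Gja4, the partner connexin, did not share that order in the members. It was at 246 untreated, 294 sedentary and 271 running CPM in members, with overlapping intervals, and at 71.6, 85.7 and 82.7 CPM over all kept barcodes. In barcodes chosen without Gja4 it was found in 19.4%, 19.6% and 19.1%. With thinned counts these were 18.4%, 30.3% and 29.6%, and the log2 ratio of running to untreated was 1.23 (0.05 to 2.28) in place of -0.17, on 12 running UMIs. Gja1 was not part of the rule, and had 193, 57 and 51 UMIs in members (602, 508 and 363 CPM). Its level in members was above that of larger-artery barcodes in each library, by log2 ratios of 0.72 (0.47 to 0.96), 1.16 (0.70 to 1.58) and 0.62 (0.14 to 1.06). Among list genes with at least 10 member UMIs per library, ranked by the smallest of the 3 ratios, it came after the pericyte marker Rgs5 and the rule gene Hey1. It was picked out after its values were seen. Barcodes with 1 or 2 arterial UMIs had 591, 389 and 388 CPM of Gja1, so a level above larger-artery barcodes was not particular to members. Running to sedentary, Gja1 in members had a log2 ratio of -0.48, within its counting error.

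**Figure D2:**
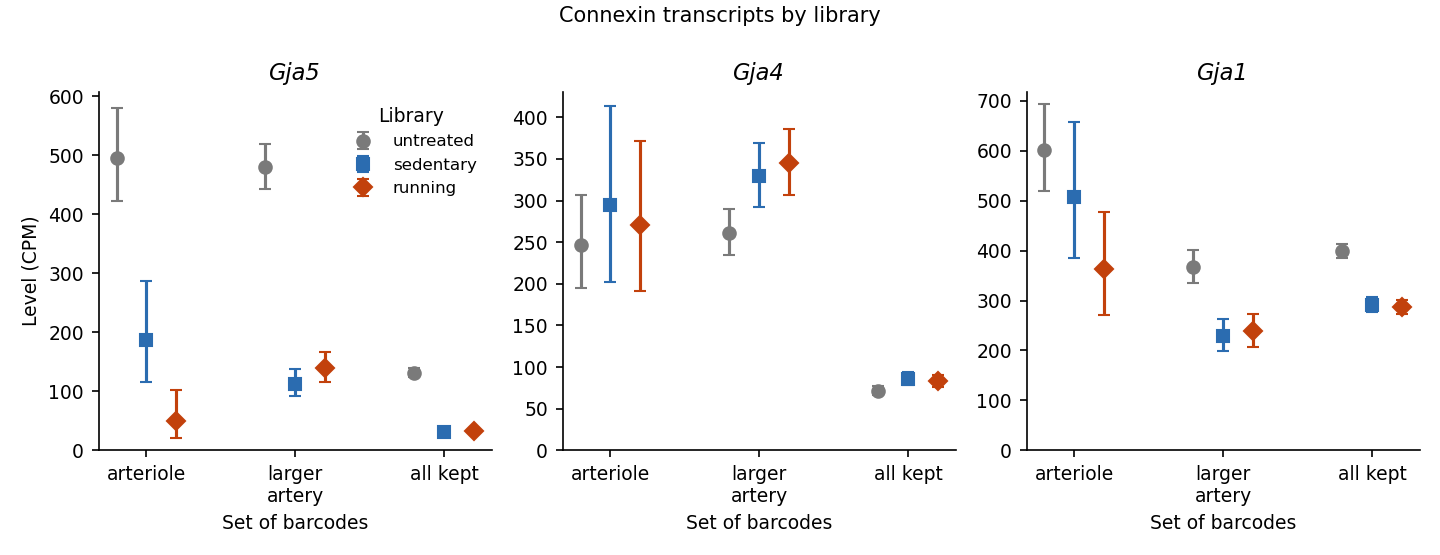
Levels of Gja5, Gja4 and Gja1 (vertical axes, CPM, one scale per panel) in arteriole, larger-artery and all kept barcodes of each library, with exact Poisson 95% intervals. Gja5 is highest in the untreated library in each set, 496 CPM against 187 and 49.9 in arteriole barcodes, whereas the Gja4 intervals in arteriole barcodes overlap.

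Genes outside the rule described the members as arterial. Of 35 arterial genes fixed as a list, 34 were measured (at least 100 UMIs over all kept barcodes), and 9 were at least 1.5-fold above the other kept barcodes in every library, with 0 that far below. Over all 10094 measured genes 262 (2.60%) were higher and 152 (1.51%) lower by this measure. The list's median log2 ratio was 0.46, against 0.10 over all genes. The 9 genes were Efnb2, Unc5b, Alpl, Tmem100, Vegfc, Edn1, Slc45a4, Rbp7 and Igfbp3. The rule used this contrast, and the list was chosen with earlier results known, so the count supports nothing further.

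Ligands and receptors of vessel patterning were among them. Unc5b, a netrin receptor, was at 1020 untreated, 250 sedentary and 157 running CPM, log2 ratios to other barcodes of 1.42, 1.39 and 0.88. Efnb2, the ephrin-B2 ligand that marks arteries against veins, was at 331, 294 and 164 CPM (0.85, 1.07 and 0.68). Vegfc, a ligand of VEGF receptors, had ratios of 1.09, 1.49 and 0.61. All of these were above the other barcodes in each library, although the running interval of Efnb2 included 0 (-0.016 to 1.25). Their levels in members were lowest in the running library. That order was not particular to members for Unc5b and Efnb2. In other barcodes Unc5b was at 382, 97.1 and 87.1 CPM and Efnb2 at 185, 142 and 104 CPM.

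Edn1, which encodes the vasoconstrictor endothelin-1, had 353, 58 and 30 UMIs in members (1101, 517 and 214 CPM) against 396, 219 and 133 CPM in other barcodes. One untreated barcode gave 20 of its 353 UMIs and one sedentary barcode 14 of 58. Igfbp3, a secreted IGF-binding protein, was at 1188, 1070 and 777 CPM against 430, 488 and 369 CPM. Alpl, tissue-nonspecific alkaline phosphatase, was at 302, 285 and 228 CPM, and Rbp7, a retinoid-binding protein, at 486, 856 and 492 CPM. The order of libraries therefore differed between these genes, while each stayed above the other barcodes.

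Genes of the Notch pathway list, which does not hold the rule gene Hey1, had a median log2 ratio of 0.09, against 0.10 over all genes. Of 20 measured genes 0 were 1.5-fold higher and 2 lower in every library, beside 2.60% and 1.51% over all genes. With so few genes the 0 says little about the list. The lower ones were Dll1 and the fringe gene Lfng, each on at most 7 UMIs per library. Dll4, the arterial Notch ligand, was at log2 ratios of 0.85, -0.01 and 0.61, and Notch4 at 0.85, 0.42 and 0.54. In the list of 32 vasomotor genes, 24 were measured and 3 were higher: Edn1, the natriuretic peptide clearance receptor gene Npr3, and Kcnj8. Npr3 had 23, 3 and 11 UMIs (2.76, 0.82 and 2.92). Kcnj8, a potassium channel subunit that is also a pericyte marker, had 22, 1 and 4 UMIs. Its 22 untreated UMIs came from 2 barcodes, 12 of them from 1 barcode. Nos3, endothelial nitric oxide synthase, was at 71.7, 107 and 64.1 CPM in members, with log2 ratios to other barcodes of -0.19, -0.0040 and -0.59 and intervals that included 0.

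**Figure D3:**
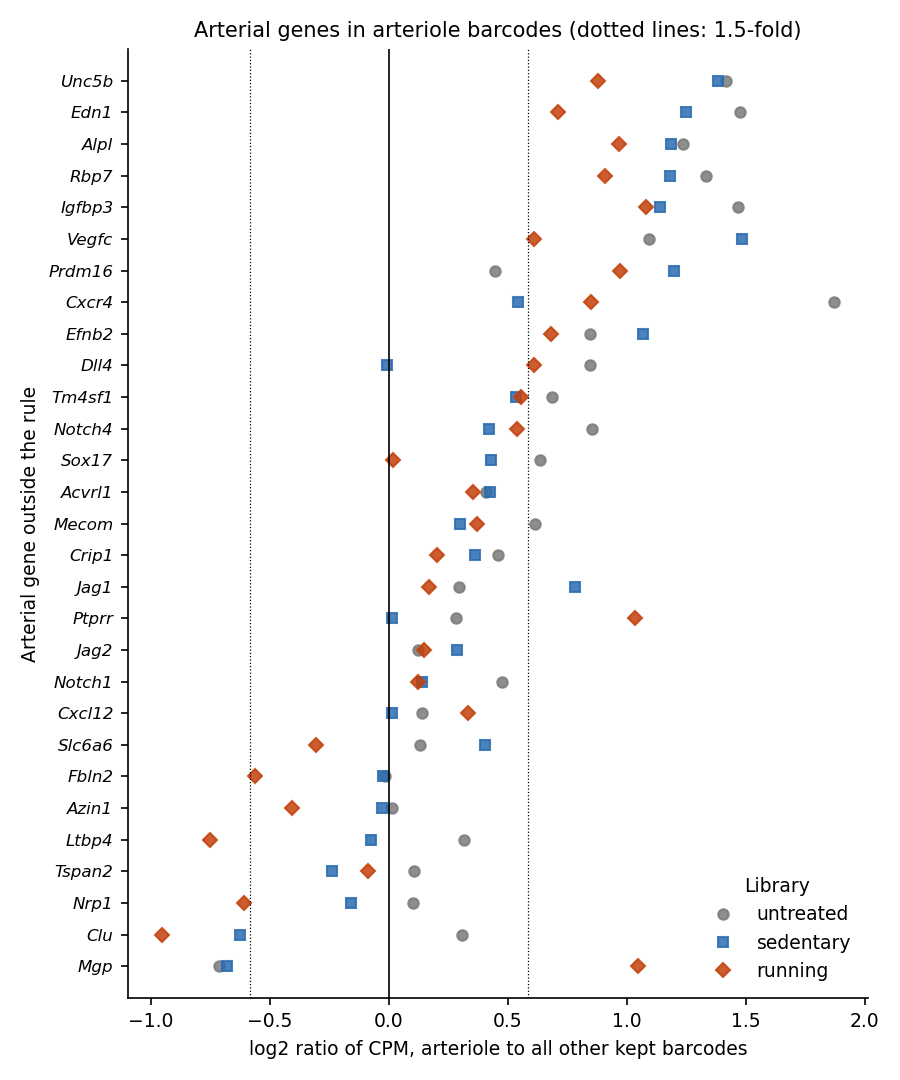
Log2 ratio of CPM in arteriole barcodes to all other kept barcodes (horizontal axis) for arterial genes outside the rule with at least 30 member UMIs, 1 symbol per library, ordered by the median of the libraries. Unc5b, Edn1, Alpl, Rbp7, Igfbp3, Vegfc and Efnb2 lie beyond 1.5-fold (dotted lines) in each library, and Mgp and Ptprr stand apart in the running library.

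The genes that ranked highest by the smallest ratio over the libraries were mostly of low counts. They were Pacsin3, Klf15, Cyp39a1, Camk4, Particl, Alox12, Plcg2, Rnf157, Slc45a4, Nat14, St8sia6 and Crybg1. Only 2 of the 12 had at least 7 member UMIs in each library: Alox12, an arachidonate lipoxygenase, with 22, 7 and 11 UMIs, and St8sia6, a sialyltransferase, with 33, 11 and 9. Their log2 ratios were 1.31, 1.45 and 1.45 for Alox12 and 1.32, 1.19 and 1.24 for St8sia6. For the other 10 at least one library's interval reached 0.

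A limit of at least 10 expected UMIs per library, added after these values were seen, left 1971 genes. Of these, 17 (0.863%) were 1.5-fold higher and 18 (0.913%) lower in every library. The higher ones outside the arterial list included Pdcd4, an inhibitor of translation (1.08, 1.33 and 1.03), Glul, glutamine synthetase (0.95, 1.03 and 1.17), Oaz2, an ornithine decarboxylase antizyme (1.09, 0.96 and 0.88), and Tpst1, a tyrosylprotein sulfotransferase (1.14, 0.74 and 1.13). Rgs5, a pericyte marker, was also among the 17.

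Genes that were lower in members ranked on higher counts. Samd5, Aqp1, Aplnr, Trp53i11, Col15a1, Actn1, Plvap, Fmo2, Ehd4, Adamts9, Fry and Zfp36l2 led this end. Aqp1, the water channel of continuous capillaries, had 164 untreated, 275 sedentary and 276 running UMIs in members (511, 2451 and 1967 CPM) against 3572, 6214 and 4694 CPM in other barcodes. Its log2 ratio was -2.80 (-3.03 to -2.58) in the untreated library and -1.34 and -1.25 in the others. The apelin receptor gene Aplnr behaved alike, at 34.3, 187 and 157 CPM and ratios of -2.62, -1.18 and -1.23. Both genes were thus depleted in members of each library, and most in the untreated one.

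Plvap, which encodes the diaphragm protein of fenestrae and of vein endothelium, was at 40.5, 143 and 92.6 CPM (-2.78, -0.91 and -1.50). Against barcodes with 0 UMIs of the 15 rule genes in place of all others, its median ratio was 0.82 and that of Ehd4, an endocytic ATPase, 0.55, so for both the direction depended on the reference. Of 20 capillary markers, 2 were lower (Aqp1 and Aplnr) and 1 higher (Btnl9, a butyrophilin-like protein: 1.25, 0.76 and 0.85). Fabp4, the fatty acid-binding protein of capillary endothelium, remained at 10163, 12041 and 10397 CPM in members (-0.24, -0.10 and -0.21), and Cd36 at 2570, 1800 and 2102 CPM.

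Set beside their neighbours, members lay between larger arteries and capillary-like barcodes. The arterial genes outside the rule summed to 15873, 15383 and 12307 CPM in members, 16927, 17554 and 16162 in larger-artery barcodes, 11880, 11864 and 9782 in barcodes with 1 or 2 arterial UMIs, 8549, 9978 and 8512 in barcodes with 0 rule UMIs and 6323, 7681 and 6764 in the vein set. The running value in members was further below the larger-artery value than in the other libraries. Capillary markers summed to 22846, 27478 and 25291 CPM in members and 36478, 38716 and 34909 in barcodes with 0 rule UMIs. Vein markers outside the rule summed to 923, 1105 and 912 CPM in members, near the larger-artery values (831, 917 and 984) and far from the vein set (5292, 4746 and 3820).

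Single barcodes spread widely around these sums. Arterial genes outside the rule took a median of 1.63% of a member's UMIs in the untreated library, from 0.407% to 4.24%. In the sedentary library the median was 1.56% (0.508% to 3.17%) and in the running library 1.20% (0.446% to 2.18%). Barcodes with 0 rule UMIs had medians of 0.794%, 0.969% and 0.817%, and their ranges overlapped those of the members. Counting error at these depths is part of such ranges, and its size was not tested. Neither a sedentary nor a running member reached the highest untreated value, among 69 and 60 members against 172.

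**Figure D4:**
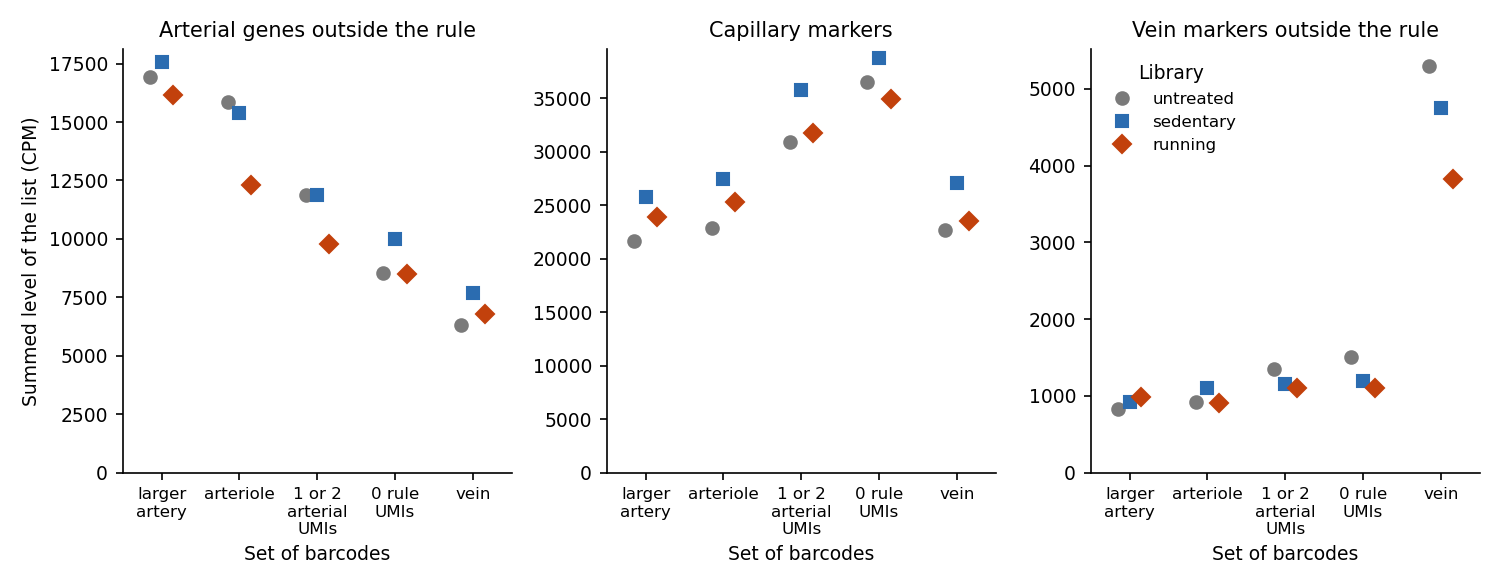
Summed CPM of 3 gene lists (vertical axes, from 0) in larger-artery, arteriole, 1 or 2 arterial UMI, 0 rule UMI and vein barcodes, 1 symbol per library. Arterial sums are highest in larger-artery barcodes and lowest in vein barcodes, with the running arteriole value at 12307 CPM against 15873 and 15383, and vein markers are high only in the vein set among those drawn.

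Larger-artery barcodes had more of the matrix gene Col8a1, a short-chain collagen, than members: 808, 232 and 279 CPM against 508, 107 and 150 CPM, log2 ratios of -0.66, -1.06 and -0.87 for members to larger artery. Ets2, a transcription factor gene, was higher in members (0.59, 0.45 and 0.77), although the sedentary interval included 0. Igfbp3 was level between both sets (0.07, 0.06 and -0.17). Edn1 was above the larger-artery level in the untreated library (0.39, 0.21 to 0.56) and below it in the running one (-0.96, -1.57 to -0.44). Eln, an elastic gene of the rule, was found in more vein-set than larger-artery barcodes (68.5%, 55.3% and 47.7% against 38.2%, 30.7% and 32.9%). These genes were chosen after their values were seen.

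Endothelial markers summed to 7615, 8414 and 7525 CPM in members, and markers of other cells were examined beside them. Pericyte and smooth muscle markers summed to 583, 544 and 841 CPM in members against 404, 257 and 434 CPM in other barcodes, and were found in 51 of 172, 12 of 69 and 27 of 60 members. Rgs5 gave 116, 33 and 64 of these UMIs. Of the 12 markers, all but Cnn1 were found in untreated and running members, and all but Cnn1 and Abcc9 in sedentary ones. All 8 leukocyte markers were at 0 in untreated and sedentary members and 3 UMIs were found in running ones. Erythrocyte genes stood at 12.5, 1096 and 3299 CPM in members and 181, 6021 and 5152 CPM in other barcodes. Lymphatic markers had 4, 24 and 24 UMIs, led by Ccl21a in the sedentary and running libraries. The part of these transcripts in the differences between libraries was not tested, except where values without such barcodes are given.

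For running against the other libraries, 967 genes had at least 100 member UMIs. In the running library 65 (6.72%) of them were at least 1.5-fold above and 79 (8.17%) below the sedentary members, and 75 (7.76%) above and 117 (12.1%) below the untreated members. Both comparisons share the running library. Among the 3328 genes with at least 30 UMIs, which served for gene lists, 512 (15.4%) were higher and 508 (15.3%) lower than in sedentary members, and 498 (15%) higher and 514 (15.4%) lower than in untreated ones. In the same genes the log2 ratios of running to sedentary had an SD of 0.65 across genes in members and 0.22 in the far more numerous other barcodes.

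Edn1 had the lowest running level relative to both libraries among the genes the rule named. Its log2 ratio in members was -1.26 to sedentary (-1.96 to -0.61) and -2.34 to untreated (-2.95 to -1.83). In other barcodes it was also lower, by ratios of -0.72 and -1.58, and the member ratio minus the other ratio was -0.54 (-1.25 to 0.12) and -0.77 (-1.39 to -0.24). The lower Edn1 was thus shared by endothelium outside the members.

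Several genes were lower in running than in sedentary members by more than in the other barcodes. All genes named for running, lower or higher, were ranked on their ratios in members. That ranking favours larger ratios in members than in other barcodes. The differences are therefore descriptions, and whether they exceed this selection was not tested. Cd9, a tetraspanin of the cell surface, was at 430 untreated, 508 sedentary and 228 running CPM in members, with a ratio to sedentary of -1.15 against -0.18 in other barcodes (difference -0.97, -1.66 to -0.32). Ltbp4, which binds latent TGF-beta and takes part in elastic-fibre assembly, was at 458, 544 and 242 CPM (-1.16 against -0.48, difference -0.68, -1.34 to -0.05). Slc6a6, the taurine transporter, was at 443, 437 and 221 CPM (-0.97 against -0.26, difference -0.71, -1.42 to -0.03). Cwc15, a spliceosome component, was at 206, 214 and 99.8 CPM (-1.08 against 0.12, difference -1.20, -2.29 to -0.20). In these 4 genes the running level was the lowest of the libraries, on 14 to 34 running UMIs. With the rule applied to thinned counts, the Ltbp4 ratio to sedentary was 0.031 and to untreated 0.57.

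Other named lower genes were Crim1, Nus1, Sema7a and Rsad2. Crim1, a membrane regulator of growth factors, had 140, 24 and 14 UMIs, and its ratios of -1.08 and -2.08 stood beside -0.31 and -1.73 in other barcodes. Sema7a, a membrane semaphorin, had 74, 22 and 14 UMIs.

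Of the genes with a higher running level, Vasp came first in the ranking. Vasp, which promotes actin filament growth, had 42, 20 and 49 UMIs in members (131, 178 and 349 CPM), with ratios of 0.95 to sedentary (0.19 to 1.80) and 1.41 to untreated (0.79 to 2.04). In other barcodes these were 0.18 and 0.75. Fcgrt, the neonatal Fc receptor that recycles IgG and albumin, had 43, 21 and 43 UMIs (0.69, -0.07 to 1.54, and 1.19, 0.55 to 1.84), with -0.03 and -0.02 in other barcodes. Selenop, the plasma selenium carrier, was at 433, 419 and 677 CPM (0.68 and 0.65), with 0.39 and 0.06 in other barcodes. Its member ratio to sedentary minus the other ratio was 0.30 (-0.22 to 0.84). Running members thus had the highest level of each, while the interval of Fcgrt to sedentary included 0.

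Socs3, a feedback inhibitor of JAK-STAT signalling, had 109, 41 and 82 UMIs, with ratios of 0.67 and 0.78 and 0.50 and 0.22 in other barcodes. Its direction was not kept under thinning with the rule applied again (-0.16 and -0.48). Cald1, an actin-binding protein abundant in smooth muscle and present in other cells, had 67, 19 and 45 UMIs and ratios of 0.90 and 0.62. Without barcodes that held 2 or more UMIs of other cell types, Cald1 turned to -0.11 and -0.15. Meox2, Polr1d, Pcp4l1 and Rexo2 were also among the named higher genes, with ratios to sedentary of 0.62 to 0.70 and intervals that included 0.

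**Figure D5:**
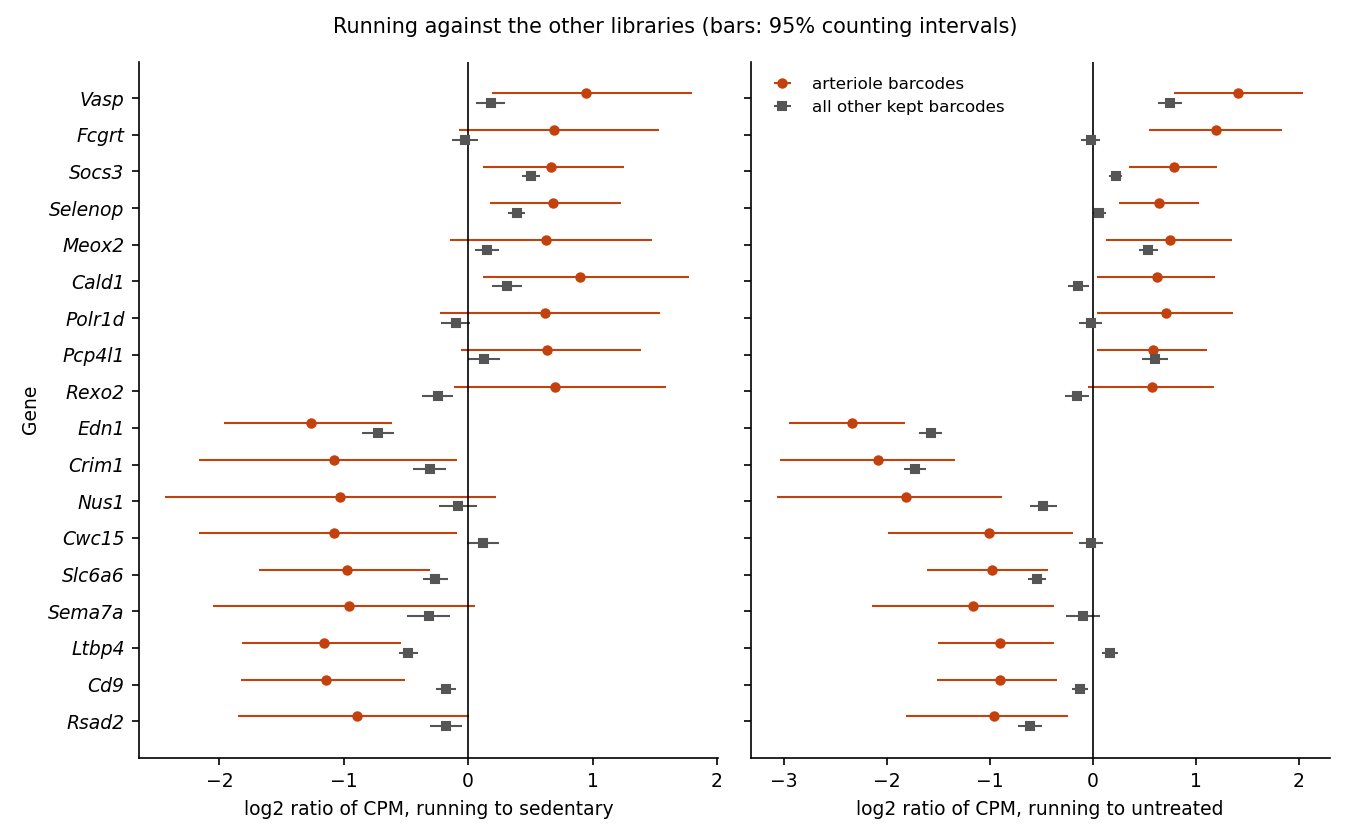
Log2 ratios of running to sedentary (left) and running to untreated (right) for 18 of the 20 genes the rule named, in arteriole barcodes (circles) and all other kept barcodes (squares), with 95% counting intervals. Edn1 and Crim1 are lower in both sets of barcodes, whereas Cd9 is lower mainly in arteriole barcodes.

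Gene lists were read against these backgrounds. Of 29 arterial genes outside the rule, 9 were 1.5-fold lower and 1 higher in running than in sedentary members, with a median log2 ratio of -0.41 against -0.03 over all genes and -0.20 for the same list in other barcodes. Against untreated members 11 were lower and 0 higher (median -0.44). Jag1, a Notch ligand (100, 80.2 and 42.8 CPM), and Fbln2, a matrix fibulin (387, 312 and 185 CPM), were among the lower ones beside Edn1, Vegfc, Efnb2 and Unc5b. Jag1 rested on only 32, 9 and 6 UMIs and Fbln2 on 124, 35 and 26. Mgp, matrix Gla protein, was the higher one, with 36, 3 and 21 UMIs of which 1 running barcode gave 10.

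The values of this list changed more with the choice of barcodes than with thinning in the comparison with sedentary members. When the members were thinned to 1000 UMIs and not chosen again, the median was -0.52 to sedentary and -0.24 to untreated, over 22 measured genes. When the rule was applied again to thinned counts it was 0.042 to sedentary and 0.091 to untreated. The thinned rule chose different barcodes: of 46 running ones, 19 were members before and 22 came from the larger-artery set, and of 47 sedentary ones these were 21 and 21. The lower level was seen in the members as first chosen and not in the barcodes of the thinned rule.

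Guidance genes, whose products steer vessels and axons, were also lower against sedentary members: 6 of 13 were lower and 1 higher than in sedentary members (median -0.55, other barcodes -0.16). Against untreated members 6 were lower and 1 higher, and the median of -0.25 was no lower than the -0.29 of the same list in other barcodes. Efna1, an ephrin-A ligand, was at 315, 401 and 192 CPM, and Nrp2, a co-receptor typical of veins and lymphatics, at 137, 98.0 and 35.6 CPM on 5 running UMIs. Epha4, a receptor of ephrins, had 113 untreated, 4 sedentary and 7 running UMIs, so it separated the untreated library from the others. The median for this list was 0.031 to sedentary with the thinned rule. Junction genes had a median of -0.39 to sedentary, and 0.17 in members thinned but not chosen again. Of 13 junction genes 2 were lower, near the 15.3% over all genes.

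Immediate-early and dissociation-response genes went the other way against sedentary members. Of 21, 8 were higher and 0 lower, with a median of 0.44, and the same list had 0.36 in other barcodes, so the shift was shared. Against untreated members 2 were higher and 3 lower (median -0.02). Egr1, a zinc-finger factor, was at 1095, 820 and 1596 CPM, and Atf3, a stress-induced factor, at 306, 196 and 399 CPM. The list took a median of 2.03% of UMIs per untreated member, 0.604% per sedentary member and 1.23% per running member, with ranges that overlapped. These genes are known to respond to handling during dissociation, and the part of such a response in the other differences was not tested.

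Capillary markers in members had a median of -0.15 to sedentary, with 1 of 19 higher and 1 lower. Kdr, the main VEGF receptor, was at 502, 668 and 969 CPM, the highest in running members. In the flow-response list, 14 genes were measured, 1 was higher and 2 were lower than in sedentary members. The higher one was Plxnd1, a semaphorin receptor, with 53, 13 and 25 UMIs and an interval that included 0. The lower ones were Nos3, with 23, 12 and 9 UMIs and an interval that included 0, and Plpp3, a lipid phosphatase, at 936, 856 and 542 CPM (-0.66, -1.11 to -0.21). The flow-induced factors Klf2 (2167, 1390 and 1347 CPM) and Klf4 (1350, 954 and 1261 CPM) did not pass 1.5-fold against sedentary members. Against untreated members Klf2 was lower by more than 1.5-fold. Among vasomotor genes 2 of 12 were higher and 4 lower than in sedentary members. Over all genes with at least 30 UMIs 15.4% were higher and 15.3% lower. With so few genes, the flow-response and vasomotor counts say little about these lists. Npr3 was higher to sedentary by a ratio of 1.39 on 3 and 11 UMIs, and Calcrl, the adrenomedullin and CGRP receptor, was lower on 11 and 3 UMIs.

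Nuclear genes of the respiratory chain were level with sedentary members (0 of 25 past 1.5-fold in either direction, median -0.12). Against untreated members 7 were higher and 0 lower (median 0.40), and in other barcodes the median was 0.33. Cxcl1, a neutrophil chemokine, had 5, 2 and 32 UMIs in members, but 1 running barcode gave 25 of the 32.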

How the data were processed

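For each of 3 libraries the authors deposited a matrix of raw UMI counts over 41605 gene identifiers. Per the labels' protocols library preparation used version 2 of the 10x Chromium 3' single-cell chemistry, and per the submitters' processing notes they were counted with Cell Ranger 2.0.2 on GRCm38.p5. The annotation release and the cell calling are not given in the sources used here.

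Here, UMIs of the barcodes in a set were summed per library and scaled to CPM of that sum, with Python 3.11.15, numpy 2.4.6, scipy 1.17.1 and pandas 2.3.3. Identifiers with the same symbol were not merged. A count of 0.5 was added to both sides of a log2 ratio, whose 95% interval is the exact one for 2 Poisson counts. Shares have Clopper-Pearson intervals. For a difference, the distances of both values to their bounds were squared, summed and rooted. Cells are not replicates, so no p-value was computed. No doublet caller was run; alternatives left out the 5% of barcodes with most UMIs, or barcodes with 2 or more UMIs of other cell types.

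Genes measured for members against others had at least 100 UMIs over all kept barcodes, and lists at least 30 member UMIs. Named genes were the 12 with the highest smallest ratio over the libraries and the 12 with the lowest largest one (with at least 10 expected UMIs). For running they were the 10 highest and 10 lowest by the smaller ratio among genes with at least 100 member UMIs and the same sign against both libraries. Numbered gene models, mitochondrial and ribosomal protein genes, rule genes and markers of other cell types were left out. Members, lists and rules were chosen with earlier results of these data known. Of the 20 genes named for running, 18 are described and the others are not reported here. Ratios and thinning were tested on simulated data. Gene positions are from GENCODE M21 and promoters from RefSeq.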

Additional observations from a re-analysis of the deposited data

Results flagged for a closer look

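In 6 cases a gene of the lists or named genes differed between the libraries in opposite directions in arteriole barcodes and in all other kept barcodes, with both counting intervals away from 0. None of these differences was tested with replicates, and 1 library stood for each group. They were the cases found among all list and named genes with at least 30 member UMIs, in 2 comparisons that share the running library. The number of genes screened and the share of such cases over all 3328 genes with at least 30 member UMIs are not given here. The 6 can therefore not be called many or few.

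For running to sedentary, Kdr was higher in members and lower elsewhere, a difference of 0.64 on the log2 scale (0.22 to 1.07). Ldha, a subunit of lactate dehydrogenase, was lower in members and higher elsewhere (-0.85, -1.49 to -0.23), from 52 sedentary and 41 running UMIs. Sox7, a SOXF transcription factor gene, was higher in members and lower elsewhere (1.74, 0.36 to 3.62), from 5 sedentary and 19 running UMIs in as many as 5 and 15 barcodes.

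For running to untreated, Efna1 was lower in members and higher elsewhere (-1.25, -1.94 to -0.63), as was Ltbp4 (-1.07, -1.68 to -0.53). Cald1 was higher in members and lower elsewhere (0.76, 0.17 to 1.34), and its ratio in members changed sign without barcodes that held markers of other cell types.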

How the results depend on the processing

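With 1 library per group the alternatives show only how values move with the processing. No paired analysis was possible because each group held 1 library. Counts of genes past 1.5-fold moved most. Of 147 such counts, share differences and Gja5 ratios over all kept barcodes, 88 stayed near the first value and 59 moved. Another 1627 values were of single genes, lists, shares of single libraries and medians of all genes. Of these, 250 moved and 22 changed direction where the first interval excluded 0. A further 22 changed sign where it included 0 or none was computed, of 44 sign changes among the 1627. The share difference of running minus sedentary, not among them, kept its sign in 10 of 13 alternatives. Counts with fewer barcodes, fewer genes or fewer libraries differ by construction; for the others the cause was not tested.

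With a minimum of 2 arterial UMIs, the share of members for running minus sedentary was -0.53 points and for running minus untreated -3.21 points. The latter was -1.20 with a minimum of 4. Without Gja5 in the sum, running minus untreated was -1.04 and sedentary minus untreated -1.37. With no limit on the elastic genes these were -4.70 and -4.81. Both of these last settings were chosen after seeing the data.

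The 262 genes higher in members in each library became 78 with a minimum of 2 arterial UMIs, 492 with 4, 408 against barcodes with 0 rule UMIs, 173 with median-of-ratios scaling, 90 among genes with at least 300 UMIs and 7866 with no filter. The 152 lower genes became 91 with a minimum of 4 and 91 among genes with at least 300 UMIs. Without the untreated library the higher and lower counts were 838 and 444, without the sedentary one 564 and 445, and without the running one 599 and 431. With at least 10 expected UMIs, added after seeing the data, they were 17 and 18. Against barcodes with 0 rule UMIs, Plvap was at 0.82 and Ehd4 at 0.55 on the log2 scale.

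For running to sedentary, the 65 higher and 79 lower genes became 115 and 137 with a minimum of 2 arterial UMIs, 38 and 46 with 4, 19 and 37 when thinned, 512 and 508 from 30 UMIs, and 7 and 13 from 300 UMIs. They became 43 and 49 without Gja5 and 42 and 50 without Hey1. The higher genes alone became 40 without the 5% of barcodes with most UMIs, 41 without barcodes holding other cells' markers and 32 without Sema3g. For running to untreated, the 75 higher and 117 lower genes became 178 and 254 with a minimum of 2, 35 and 58 with 4, 29 and 41 when thinned, 34 and 184 with median-of-ratios scaling, 498 and 514 from 30 UMIs, 11 and 26 from 300 UMIs, and 34 and 53 without Hey1. In members thinned but not chosen again, added after seeing the data, the counts were 25 and 42 to sedentary and 36 and 55 to untreated.

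Changes of direction from a first interval that excluded 0, as log2 ratios, came mostly with thinning and the rule applied again. To sedentary these were Socs3 at -0.16, Ltbp4 at 0.031, and the arterial, guidance and capillary medians at 0.042, 0.031 and 0.18. To untreated they were Socs3 at -0.48, Cald1 at -0.25, Pcp4l1 at -0.77, Sema7a at 0.21, Ltbp4 at 0.57, and the arterial and guidance medians at 0.091 and 0.00093. Other settings turned Socs3 to -0.17 without Hey1, Cald1 to -0.090 with a minimum of 4 arterial UMIs, both to sedentary, and Cald1 to -0.11 and -0.15 without barcodes holding other cells' markers. The capillary median to untreated was -0.052 with median-of-ratios scaling and the vasomotor one 0.0018 without Gja4. In members thinned but not chosen again, Pcp4l1 was at -0.18 to untreated and the junction median at 0.17 to sedentary. Gja5 over all kept barcodes, thinned, was at -1.65 for running to untreated, a setting added after seeing the data.
Among named genes whose first interval included 0, the ratio to sedentary changed sign for Pcp4l1 (-1.22 when thinned), Rexo2 (lowest -0.25, in 3 settings), Meox2 (-0.14 in members thinned but not chosen again), Polr1d (-0.12) and Rsad2 (0.14), the last pair with a minimum of 4 arterial UMIs. To untreated, Rexo2 was at -0.24 with a minimum of 2. The vasomotor median to sedentary changed sign in 4 settings (up to 0.28) and the immediate-early median to untreated in 3 (up to 0.081). The other 7 sign changes were of the median of all genes.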
